A study of Mus musculus with 4 samples.

Results

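The 10 regulators of mitochondrial biogenesis, fusion and fission followed here in mRNA-seq of mESCs are 10 of the 37310 genes of the deposited table. They are listed by name for their known function, with no threshold on a value: the coactivators Ppargc1a and Ppargc1b, the transcription factors Nrf1 and Esrra, the mitochondrial DNA-binding factor Tfam, the fusion genes Mfn1, Mfn2 and Opa1, and the fission genes Dnm1l and Fis1. Of these, 9 had a mean value of 10 or more across the 4 libraries and were tested, and Ppargc1a was not. The series holds 2 wild-type libraries of JM8 mESCs, a line of the mouse strain C57BL6/N, and 2 libraries labelled Bmal1-/-, all from total RNA. Bmal1 (listed as Arntl) is the clock transcription factor that pairs with Clock and binds the E-box. The Bmal1-/- cells are 1 clone of the same line, in which Cas9 left frame-shifting indels in both alleles, and each group has 2 biological replicates. All cells grew feeder-free on gelatin in serum-free N2B27 with LIF, the Mek inhibitor PD0325901 at 1 µM and the Gsk3 inhibitor CHIR99021 at 3 µM (2i + LIF medium). A difference between the groups may therefore belong to the clone as well as to the genotype, and the 2 cannot be told apart here.

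Mitochondria are not made anew but grow from existing ones, and they constantly join and divide. In biogenesis, the PGC-1 coactivators, encoded by Ppargc1a and Ppargc1b, bind transcription factors such as Nrf1 and the estrogen-related receptor Esrra and drive nuclear genes of mitochondrial proteins, among them Tfam, which packages and transcribes mitochondrial DNA. In fusion, the mitofusins Mfn1 and Mfn2 join outer membranes and Opa1 joins inner membranes and shapes cristae. In fission, the dynamin-like GTPase encoded by Dnm1l (Drp1) is recruited from the cytosol by outer membrane proteins and constricts the organelle, and Fis1 is a small outer membrane protein that has been linked to that step and to clearance of mitochondria. Pluripotent mESCs are known for small, rounded mitochondria with few cristae.

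The main differences were in fusion and fission genes and in Tfam. Mfn1 rose 1.52-fold in Bmal1-/- cells and Dnm1l rose 1.09-fold, whereas Fis1 fell to 73.2% and Tfam to 80.8% of the wild-type mean. The other 5 genes tested, Ppargc1b, Nrf1, Esrra, Mfn2 and Opa1, did not pass the test with the authors' scaling. No member changed by 2-fold. The test was limma on log2(value + 1), fitted over all 14510 genes with such a mean, with Benjamini-Hochberg adjusted p-values, and a gene was called at an adjusted p under 0.05. Thus 4 of 9 members tested were called, 2 higher and 2 lower, where 52.6% of all genes tested were called (24.0% higher and 28.6% lower). With equal library totals in place of the authors' scaling, 56.8% of the calls over all genes were higher instead of 45.7%, and the same number of members, 2 and 2, was called in each direction. Calls past 2-fold took in 7.21% of all genes and 0 members. Values of the 2 groups did not overlap for 5 members, 2 higher and 3 lower in Bmal1-/- libraries, beside 76.0% of all genes tested (34.6% higher and 41.4% lower). The median log2 fold change was −0.07 over the 9 members and −0.03 over all genes. With the authors' scaling the share of members called was thus not above that of all genes. With values centred on exon length (described below) 7 of 9 members were called beside 49.6% of all genes.

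**Figure D1:**
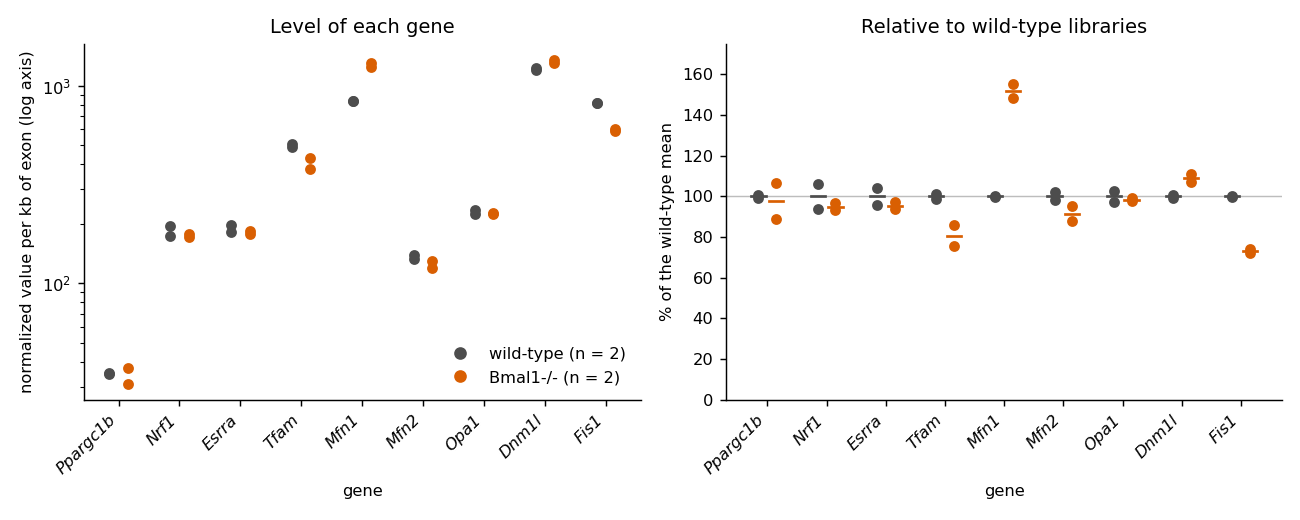
Normalized values of 9 regulators in each library, with wild-type in grey and Bmal1-/- in orange (n = 2 each). The left panel gives the level per kb of exon on a log axis and the right panel gives each library as a percentage of the wild-type mean, with short lines at the group means; Ppargc1a, with at most 1 read per library, is not drawn. Mfn1 sits at 152% of the wild-type mean and Fis1 at 73.2%, with no overlap of libraries.

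Reads on genes were between 21504265 and 23329034 per library, and a floor of 3 reads corresponded to a normalized value of 2.82 to 3.19. The targeted gene Arntl (ENSMUSG00000055116) was at 678 and 733 in wild-type and at 556 and 590 in Bmal1-/- libraries, a difference on the log2 scale of −0.30 (standard error, SE, 0.07, adjusted p = 0.0011). Its mRNA was thus present in all 4 libraries and does not identify the genotypes. The study, in contrast, detected no Bmal1 mRNA in Bmal1-/- mESCs by RT-qPCR and no Bmal1 protein by Western blot. Why the reads differ from the RT-qPCR was not tested. All 12 mESC markers were tested, and their summed values were 175339 to 178174 in wild-type and 182344 to 184246 in Bmal1-/- libraries. Of these markers 6 were called higher and 5 lower, so the sum hides changes both ways. Of 8 fibroblast or feeder markers, Col1a2, Col3a1, Dcn, Lum and Postn had at most 3 reads in every library, and the list summed to 122 to 126 in wild-type and 166 to 194 in Bmal1-/-. The 8 neural markers summed to 4177 to 4430 and to 2445 to 2627, with Fabp7 and Dcx at or under 3 reads throughout. The 8 primitive endoderm markers summed to 617 to 643 and to 736 to 770, and the 8 mesoderm markers to 524 to 533 and to 404 to 439, with Mesp1 at or under 3 reads. Called higher and lower were 2 and 0 of 3 feeder markers tested and 0 and 3 of 6 neural markers. For primitive endoderm the calls were 3 and 1 of 5 tested and for mesoderm 1 and 1 of 4. Over all genes 24.0% were called higher and 28.6% lower. The part of these marker differences in the results below was not tested.

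Exon length here is the union of the exons of all annotated transcripts of a gene, which can be longer than the mRNA expressed. Over the 10486 genes with a mean of at least 100, the log2 fold change also rose with exon length. Its median was −0.25 in the tenth of genes with the shortest exons (57 to 1489 bases) and 0.19 in the tenth with the longest (8318 to 116828 bases). Between replicates the same medians went from 0.04 to −0.07 in wild-type and from −0.02 to 0.01 in Bmal1-/- libraries. Values centred on exon length, an alternative chosen after seeing the data, are therefore given beside the members that they change. With them 7 of 9 members were called, 2 higher and 5 lower, where 49.6% of all genes were (21.8% higher and 27.7% lower). With GC content centred as well 6 were called, 1 higher and 5 lower, where 53.8% of all genes were (22.8% higher and 31.0% lower).

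**Figure D2:**
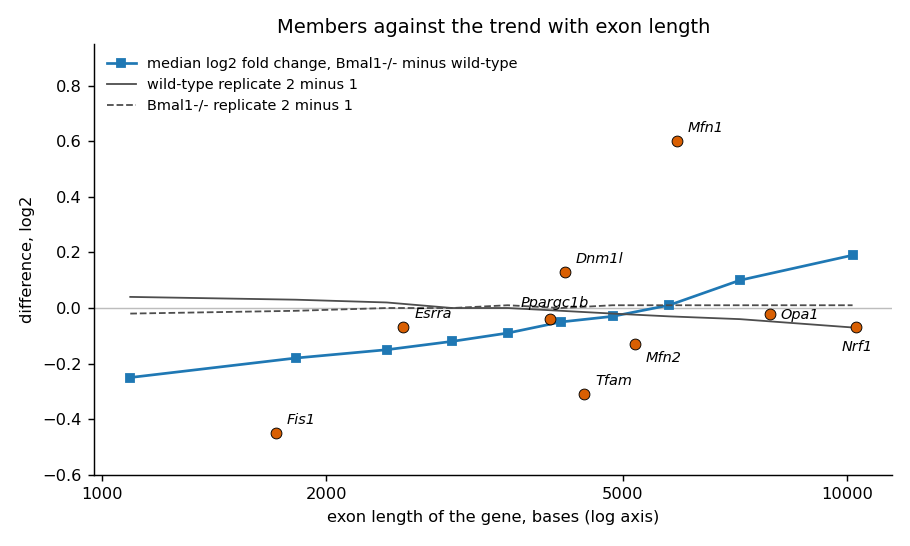
Log2 fold change of 9 regulators (orange points) against the exon length of the gene in bases on a log axis, over the median of all genes in 10 bins of exon length (blue squares). Grey lines give the difference between the 2 replicates of each group, which stays between −0.07 and 0.04, whereas the blue line climbs from −0.25 to 0.19; Mfn1 lies above and Fis1 and Tfam below the blue line.

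Promoter sequence was examined because Tfam is a textbook target of ETS factors (GABP, also called NRF-2) and of Nrf1. Windows of 250 bases before to 50 after each annotated start (RefSeq, GRCm38.p6) were at hand for 9 members, and Ppargc1b was not among them. The ETS core CCGGAAG, searched on both strands, was found in a window of Mfn1, Tfam, Fis1 and Dnm1l, and in no window of Ppargc1a, Nrf1, Esrra, Mfn2 or Opa1. It stands in 8.86% of the 32851 promoters of that table, a share of windows and not of genes, as a gene may have several windows. With the authors' scaling the 4 members that hold these letters are the 4 that were called, 2 of them higher and 2 lower. For Dnm1l the match rests on the window of a downstream start, as the upstream Dnm1l window holds no core. How many of all called genes hold the core was not counted, so this match was not tested. This match was not kept with values centred on exon length, where Nrf1, Mfn2 and Opa1 were called too, or with GC content centred as well, where Dnm1l was not called. One window of each is shown 5′ to 3′ on the strand of the gene, with the core in capitals.
Mfn1, chr3:32529232-32529531, + strand: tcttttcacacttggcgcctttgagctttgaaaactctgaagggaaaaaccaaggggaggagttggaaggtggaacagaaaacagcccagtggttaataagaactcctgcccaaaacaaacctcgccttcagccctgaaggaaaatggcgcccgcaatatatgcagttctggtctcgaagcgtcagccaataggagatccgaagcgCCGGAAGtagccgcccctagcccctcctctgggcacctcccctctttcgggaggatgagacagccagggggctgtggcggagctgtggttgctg
Tfam, chr10:71237995-71238294, − strand: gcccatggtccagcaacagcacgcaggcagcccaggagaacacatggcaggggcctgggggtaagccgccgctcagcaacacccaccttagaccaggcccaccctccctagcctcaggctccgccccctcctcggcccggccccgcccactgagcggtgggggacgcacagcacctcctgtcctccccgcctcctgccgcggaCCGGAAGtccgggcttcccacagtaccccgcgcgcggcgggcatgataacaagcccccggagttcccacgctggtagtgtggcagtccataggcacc
Fis1, first start, chr5:136953025-136953324, + strand: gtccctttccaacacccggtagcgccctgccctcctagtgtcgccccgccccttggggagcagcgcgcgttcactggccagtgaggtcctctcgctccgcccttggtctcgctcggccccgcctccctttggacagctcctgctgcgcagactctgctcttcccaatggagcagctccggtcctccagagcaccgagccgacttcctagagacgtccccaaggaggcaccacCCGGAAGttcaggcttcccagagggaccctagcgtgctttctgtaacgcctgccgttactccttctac
Dnm1l, first start, chr16:16358526-16358825, − strand: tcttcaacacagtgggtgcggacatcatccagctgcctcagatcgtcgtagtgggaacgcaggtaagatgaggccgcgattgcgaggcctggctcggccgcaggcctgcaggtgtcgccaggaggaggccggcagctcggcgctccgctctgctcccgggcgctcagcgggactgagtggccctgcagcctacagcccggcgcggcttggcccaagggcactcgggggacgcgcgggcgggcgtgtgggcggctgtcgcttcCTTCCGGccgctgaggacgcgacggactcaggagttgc
The core began 44 bases before the start in Mfn1, 47 before it in Tfam and 18 before it in the first Fis1 window. It stood 19 bases after the second Fis1 start and, on the other strand (CTTCCGG), 12 bases after the first Dnm1l start. First and second follow the order of listing. As Dnm1l is on the − strand, its second window, chr16:16358982-16359281, lies upstream of its first. This upstream Dnm1l window held no core. The Nrf1 site, GCGC and TGCGC with any 1 base between them (4.60% of promoters), was found once, in Opa1, 59 bases before the start. The E-box CACGTG (7.15%), the ERR half-site TNAAGGTCA (1.28%) and the cAMP response element TGACGTCA (1.79%) were in no window of the 9 members. No 2 matches overlapped, and a match or its absence says only which letters are in these windows.

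The coactivators were the least abundant members. Ppargc1a (ENSMUSG00000029167, chromosome 5 from 51845488 to 51958964 in mm9), the PGC-1α gene that is abundant in brown fat and muscle, had 1 and 1 reads in wild-type and 0 and 1 in Bmal1-/- libraries. All 4 values are under the floor of 3 reads, so no fold change is given and a difference was not detectable at this depth. Ppargc1b (ENSMUSG00000033871, chromosome 18 from 61457790 to 61560085), the PGC-1β gene, was at normalized values of 140.1 and 138 in wild-type and 148 and 124 in Bmal1-/- libraries. Its wild-type values lay between the 2 Bmal1-/- values. In every library Ppargc1b was at least 43.3-fold over the floor that bounds Ppargc1a, and up to 52.7-fold. The log2 fold change of Ppargc1b was −0.04 with a 95% interval of −0.31 to 0.24 and an adjusted p of 0.84, the widest interval of the 9 members.

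The transcription factors bound by the coactivators showed small differences. Nrf1 (ENSMUSG00000058440, chromosome 6 from 29997988 to 30103458), nuclear respiratory factor 1, had values of 2002 and 1777 in wild-type and of 1825 and 1760.3 in Bmal1-/- libraries. The wild-type values lay on both sides of the first Bmal1-/- library. Its log2 fold change was −0.07 (interval −0.19 to 0.04, adjusted p = 0.28 from limma). The call for Nrf1 depended on single libraries and on length: without wild-type replicate 2 it was −0.16 (adjusted p = 0.014), without wild-type replicate 1 it was 0.01 (adjusted p = 0.88), and with values centred on exon length it was −0.30 (adjusted p = 3e-05). When a library is left out, 1 group holds a single library, which limma takes to vary like the other group and like genes of similar level. Nrf1 has the longest exons of the members, 10282 bases.

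Esrra (ENSMUSG00000024955, chromosome 19 from 6985467 to 6996303), the estrogen-related receptor α that works with PGC-1 in energy metabolism, had values of 498 and 459 in wild-type and of 465 and 449 in Bmal1-/- libraries, which overlap. Its log2 fold change was −0.07 with an interval of −0.23 to 0.09 (adjusted p = 0.50). Esrra shares 73 exonic bases with Trmt112 on the opposite strand. The libraries were stranded, but whether counting used the strand is not given in the sources used here, so that reads of these bases cannot be assigned. The ratio of Esrra to Nrf1 per kb of exon, which does not depend on scaling between libraries, was 1.01 and 1.05 in wild-type and 1.03 and 1.03 in Bmal1-/- libraries. Both factors were at nearly equal levels per kb of annotated exon in each of the 4 libraries. This equality depends on the annotation, which joins the exons of 22 transcripts for Nrf1 and 5 for Esrra. The exact permutation test gave p = 1, but with 2 libraries against 2 it cannot show a difference or its absence. Centring on exon length put Esrra at 0.01 and Nrf1 at −0.30.

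Tfam (ENSMUSG00000003923, chromosome 10 from 70688212 to 70701028), the factor that coats mitochondrial DNA and starts its transcription, fell. Its values were 2181 and 2239 in wild-type and 1670.2 and 1900.5 in Bmal1-/- libraries. Both Bmal1-/- libraries were below both wild-type libraries, and the gap between the groups was close to the gap within the Bmal1-/- group. The log2 fold change was −0.31 (SE 0.06, interval −0.43 to −0.19, adjusted p = 8.9e-05), and it was −0.33 with values centred on exon length. With limma without its intensity trend the adjusted p was 0.063.

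The mRNAs encoded by mitochondrial DNA, which Tfam serves, were looked at beside it. Reads on mitochondrial genes were 1.98% and 2.27% of a wild-type library and 2.00% and 1.95% of a Bmal1-/- library, so that the groups overlapped. Of 13 protein-coding mitochondrial genes 7 passed the filter. Why the rest had a mean under 10 was not tested, and how reads were counted is not given. Of the 7, 5 (71.4%) were called lower and 0 higher, with a median log2 fold change of −0.16 and a range of −0.49 to −0.03. Over all genes 28.6% were lower. Medians were −0.25 for genes with exons of 57 to 1489 bases and −0.18 for 1491 to 2120 bases. These 2 medians are of genes with a mean of at least 100. The median of the 7 mitochondrial mRNAs was not below them, though a larger share of the 7 was called lower than of all genes.

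Of the mitofusins of the outer membrane, Mfn1 rose and Mfn2 did not pass the test. Mfn1 (ENSMUSG00000027668, chromosome 3 from 32428387 to 32478161) had values of 4957 and 4936 in wild-type and of 7339.5 and 7687 in Bmal1-/- libraries. Both Bmal1-/- libraries stood far above both wild-type libraries, and the replicates of each group were close together. The log2 fold change of Mfn1 was 0.60 (SE 0.04, interval 0.52 to 0.69, adjusted p = 1.4e-10), the largest of the 9 members tested in either direction. This placed Mfn1 at percentile 88.2 of the log2 fold changes of all genes tested, and 1514 called genes rose more. With values centred on exon length it was 0.53, and centring on GC content as well gave 0.50.

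Mfn2 (ENSMUSG00000029020, chromosome 4 from 147247708 to 147278813), which also tethers mitochondria to the endoplasmic reticulum, had values of 719.5 and 692 in wild-type and of 619 and 672 in Bmal1-/- libraries. The groups did not overlap, but the gap between them was smaller than the spread within either. The log2 fold change was −0.13 (interval −0.27 to 0.01, adjusted p = 0.12), and centring on exon length gave −0.17 (adjusted p = 0.033). Within each library Mfn1 was far above Mfn2 per kb of exon. The ratio of Mfn1 to Mfn2 was 6.06 and 6.28 in wild-type (6.17 ± 0.155, SD, n = 2) and 10.4 and 10.1 in Bmal1-/- libraries (10.2 ± 0.262, SD, n = 2), a difference of 0.73 on the log2 scale. The exact permutation test over libraries, two-sided, gave p = 0.33 for this ratio, which is the smallest value that 2 libraries against 2 allow.

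Opa1 (ENSMUSG00000038084, chromosome 16 from 29579420 to 29654970), the dynamin-like GTPase of the inner membrane, had values of 1855 and 1755 in wild-type and of 1762 and 1792 in Bmal1-/- libraries. The Bmal1-/- values lay between the wild-type values. Opa1 had a log2 fold change of −0.02 with an interval of −0.13 to 0.08 (adjusted p = 0.73). Centring on exon length turned it into a call, at −0.17 (adjusted p = 0.0035). Its exons span 7875 bases, and genes with exons of 6396 to 8311 bases had a median log2 fold change of 0.10.

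The fission genes moved in opposite directions. Dnm1l (ENSMUSG00000022789, chromosome 16 from 16312328 to 16359123), which encodes the dynamin-like GTPase that divides the organelle, had values of 5030.4 and 5119 in wild-type and of 5443 and 5631 in Bmal1-/- libraries. Both Bmal1-/- libraries were higher, by a small margin. For Dnm1l the log2 fold change was 0.13 (SE 0.04, interval 0.04 to 0.21, adjusted p = 0.013). Its adjusted p was the largest of the 4 called. Without Bmal1-/- replicate 2, with the spread then taken from the wild-type pair and from genes of similar level, it was 0.10 (adjusted p = 0.15), and with values centred on exon length and GC content it was 0.07 (adjusted p = 0.056).

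Fis1 (ENSMUSG00000019054, chromosome 5 from 137429145 to 137442104), the outer membrane protein, had values of 1396 and 1403 in wild-type and of 1039 and 1011 in Bmal1-/- libraries. The groups were far apart and the replicates of each nearly equal. The log2 fold change of Fis1 was −0.45 (SE 0.05, interval −0.56 to −0.34, adjusted p = 7.0e-07), the lowest of the members. Fis1 also has the shortest exons of the members, 1714 bases, and with values centred on exon length its log2 fold change was −0.34 and on GC content as well −0.30, still past the test. The ratio of Dnm1l to Fis1 per kb of exon, chosen after their values were seen, was 1.48 and 1.49 in wild-type and 2.15 and 2.28 in Bmal1-/- libraries.

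Fusion and fission genes were also summed within each library. Per kb of exon, the sum of Mfn1, Mfn2 and Opa1 over the sum of Dnm1l and Fis1 was 0.602 and 0.584 in wild-type (0.593 ± 0.0128, SD, n = 2) and 0.832 and 0.857 in Bmal1-/- libraries (0.844 ± 0.0179, SD, n = 2). The log2 difference was 0.51 and the exact permutation p was 0.33, again the smallest possible. Because Mfn1 and Fis1 moved most, this ratio restates their differences, and mRNA ratios do not measure fusion or fission of the organelle. Neither this ratio nor that of Dnm1l to Fis1 was recomputed with values centred on exon length. With those values the log2 fold change was 0.53 for Mfn1 and −0.34 for Fis1.

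**Figure D3:**
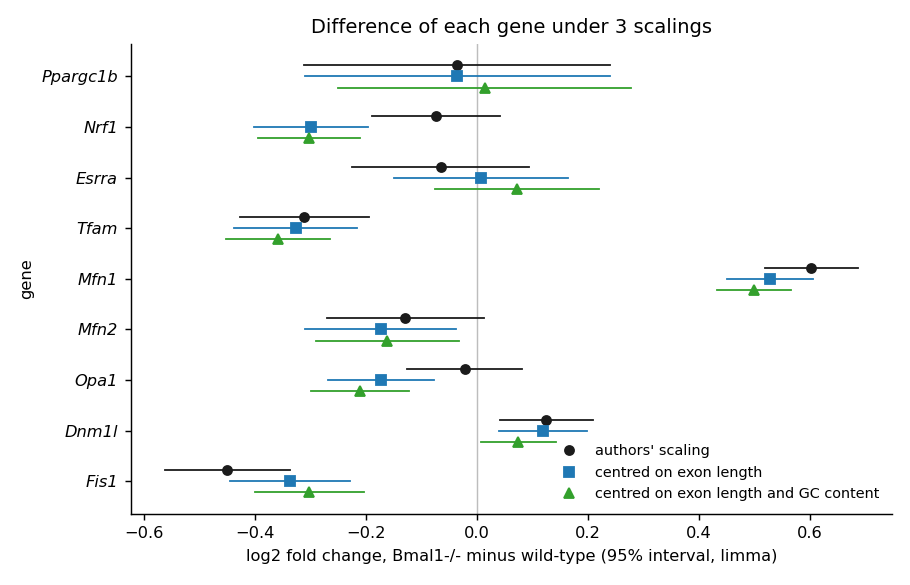
Log2 fold change, Bmal1-/- minus wild-type, of 9 regulators with its 95% interval from limma (2 libraries per group), under the authors' scaling (black), with values centred on exon length (blue) and on exon length and GC content (green). Mfn1, Tfam and Fis1 keep their side of 0 in all 3 fits, at 0.50 to 0.60, −0.36 to −0.31 and −0.45 to −0.30; Nrf1 moves from −0.07 to −0.30.

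Levels per kb of exon, averaged over the 4 libraries, put Dnm1l first at 1268, followed by Mfn1 at 1055, Fis1 at 707, Tfam at 450.1, Opa1 at 227, Esrra at 184, Nrf1 at 179, Mfn2 at 130.1, Ppargc1b at 34.5 and Ppargc1a at 0.116. The ranges over libraries overlapped for Dnm1l and Mfn1 and for Esrra and Nrf1, and for no other neighbours in this order. The overlap of Dnm1l and Mfn1 came from the Bmal1-/- libraries, in which Mfn1 reached 1243 and 1302. By this measure Dnm1l, Mfn1 and Fis1 were the most abundant members and the coactivators the least. Mfn2, which shares the outer membrane with Mfn1, stood below Tfam, Opa1, Esrra and Nrf1. The order depends on the annotated exon lengths.

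**Figure D4:**
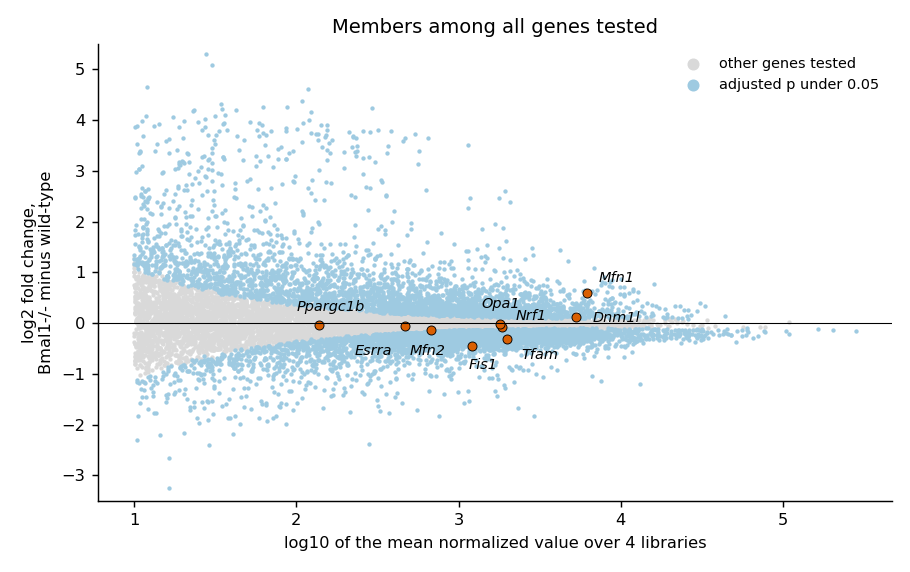
Log2 fold change, Bmal1-/- minus wild-type, against the log10 of the mean normalized value for all 14510 genes tested, with genes at an adjusted p under 0.05 in blue, other genes in grey and 9 regulators in orange. The regulators lie between −0.45 (Fis1) and 0.60 (Mfn1), within the spread of the transcriptome, in which 52.6% of genes were called.

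The rest of the machinery was described with 8 gene lists, 113 genes in all, of which 106 were tested. Together 52 were called lower and 9 higher, with a median log2 fold change of −0.15 beside −0.03 for all genes. The share called in either direction, 57.5%, was near the 52.6% of all genes. By direction 49.1% were lower and 8.49% higher, beside 28.6% and 24.0% of all genes. Their median exon length was 3594 bases, close to the 3432 of all genes tested, and centring on exon length left 50 lower and 10 higher. The split depended on scaling: with equal library totals 38 were lower and 19 higher.

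The clearest lists were those of the organelle's own structure. In protein import and outer membrane pores, 16 of 17 genes tested were called lower and 0 higher, with a median of −0.26. These are 94.1% of the list, beside 28.6% of all genes called lower and 52.6% called in either direction. Tomm5, a small subunit of the outer membrane translocase, fell by 0.49 on the log2 scale (adjusted p = 2.9e-07), and Timm21 and Timm22, of the inner membrane translocases, had log2 fold changes of −0.45 and −0.45. In cristae organisation 9 of 11 genes, 81.8% of the list, were lower and 0 higher, with a median of −0.22. Chchd6 had a log2 fold change of −0.48, Micos10, a core subunit of the MICOS complex at crista junctions, of −0.41, and Dnajc11 of −0.39. These genes have short exons, with list medians of 2557 and 2926 bases. With values centred on exon length 13 import genes and 7 cristae genes were called lower and none higher. Over all genes 27.7% were then called lower. Limma without its intensity trend called 9 import and 5 cristae genes lower, and DESeq2 on whole reads called 13 and 5. Over all 14510 genes these fits called 5060 and 5226, instead of 7639.

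The partners of the members moved less. Of 15 genes for fusion partners and Opa1 processing, 6 were called lower and 0 higher, with a median of −0.13. These are 40.0% of the list, beside 28.6% of all genes called lower and 52.6% called in either direction. Stoml2 had a log2 fold change of −0.37, Parl, an inner membrane protease, of −0.33, and Phb2, a prohibitin that scaffolds the inner membrane, of −0.32. Of 12 fission adaptors and regulators tested, 4 were lower and 0 higher, with a median of −0.10. This share of 33.3% was near the 28.6% of all genes called lower and below the 52.6% called in all. Mtfp1, an inner membrane protein of fission, changed by −0.54 on the log2 scale (adjusted p = 6.0e-05), Mtfr2 of −0.27 and Mief2, which recruits Drp1, of −0.22 (adjusted p = 0.026). Without Bmal1-/- replicate 2 only 2 fission adaptors were called lower.

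Genes of mitochondrial DNA maintenance and transcription, which act with Tfam, gave 7 lower and 0 higher of 22 tested, with a median of −0.12. The share of 31.8% was near the 28.6% of all genes called lower and below the 52.6% called in all. Tefm, the mitochondrial transcription elongation factor, changed by −0.41 on the log2 scale (adjusted p = 0.0017), Slirp, which stabilises mitochondrial mRNAs with Lrpprc, of −0.36, and Ssbp1, the single-stranded DNA-binding protein of the organelle, of −0.35. With equal library totals 5 were lower and 3 higher. Mterf1a and Mterf1b are near-identical copies, and their reads may have been split between them.

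In the PGC-1, ERR and NRF axis, the regulators around the coactivators, 4 genes were higher and 3 lower of 15 tested, with a median of 0.08. Prkaa2, the α2 catalytic subunit of AMPK, rose by 0.65 on the log2 scale (adjusted p = 1.7e-07), and the corepressors Ncor1 and Nrip1 by 0.47 and 0.29. With values centred on exon length Ncor1 was at 0.18 (adjusted p = 0.00023) and Nrip1 at 0.03 (adjusted p = 0.75). Kat2a, an acetyltransferase of PGC-1α, had a log2 fold change of −0.25, Ppard of −0.17 and Esrrb, an orphan receptor that is also a naive pluripotency factor, of −0.14. Leaving out wild-type replicate 1 gave 8 called higher, and leaving out wild-type replicate 2 gave 2. Exons of this list were long, with a median of 6047 bases, and with values centred on exon length 4 were higher and 6 lower. Over all genes 21.8% were then called higher and 27.7% lower.

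Transport and mitophagy genes moved both ways. Of 7 genes for mitochondrial transport on microtubules, the kinesins Kif1b and Kif5b and the adaptor Trak2 rose, with log2 fold changes of 0.44, 0.33 and 0.42, and Rhot2 and Trak1 fell by 0.24 and by 0.22 on the log2 scale. With values centred on exon length, whose median was 7077 bases in this list, 2 genes were higher and 3 lower: Kif1b lost its call at 0.07 (adjusted p = 0.22), and Kif5b and Trak2 were at 0.20 and 0.30. Armcx3, an outer membrane protein, was the 1 list gene past 2-fold, with values of 16.9 and 17 in wild-type and of 5.64 and 2.86 in Bmal1-/- libraries. The last of these values equals 3 reads, and the log2 fold change was −1.82 (adjusted p = 0.0024). Over the alternatives run it was between −2.81 and −0.93, so that Armcx3 was not past 2-fold in all of them. With Armcx3, 3 transport genes were called higher and 3 lower. Each is 42.9% of the list, beside 24.0% higher and 28.6% lower over all genes. Of 7 mitophagy genes tested, Bnip3 and Pink1 rose and 4 fell, 28.6% and 57.1% of the list beside 24.0% and 28.6% of all genes. Without Bmal1-/- replicate 2 only 2 were called lower, and without wild-type replicate 2 or Bmal1-/- replicate 1 only 1 was called higher. Bnip3, an outer membrane receptor induced in hypoxia, had values of 271 and 296 in wild-type and of 494 and 550.2 in Bmal1-/- libraries, which is 0.88 on the log2 scale (adjusted p = 4.7e-08). Pink1, the kinase that marks damaged mitochondria, had a log2 fold change of 0.33, Fundc2 of −0.41, Bnip3l of −0.17 and Fkbp8 of −0.16.

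**Figure D5:**
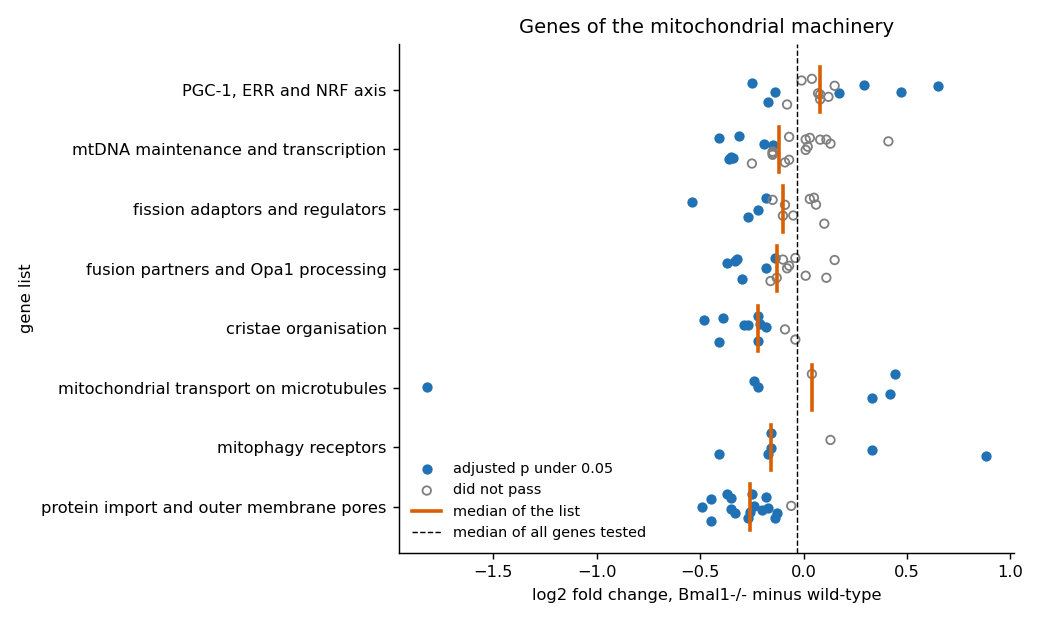
Log2 fold change, Bmal1-/- minus wild-type, of each tested gene of 8 mitochondrial gene lists, with genes at an adjusted p under 0.05 filled and others open. Orange bars give the median of each list, from −0.26 for protein import to 0.08 for the PGC-1, ERR and NRF axis. The dashed line gives the median of all genes tested, −0.03. Called higher were 0 import and 0 cristae genes, beside 24.0% of all genes.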

How the data were processed

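mRNA-seq libraries of 2 wild-type and 2 Bmal1-/- mESC cultures were prepared with a stranded kit. Per the labels, the authors used bcl2fastq 2.18.0.12, cutadapt 1.9.1 and STAR 2.5.2b and aligned to mm9, and they scaled read counts by TMM. The counting tool and its strand setting are not given in the sources used here. The deposited values are a normalized signal per gene and library, not whole counts. Every value was a whole multiple of 1 number per library (100% of values, tolerance 0.01 of a read), so whole reads were recovered for count tests. All 37310 gene identifiers matched the GENCODE annotation of mm9, and 23 list genes, markers included, were matched through an older symbol.

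The test was limma 3.58.1 (R 4.3.3) with a trend of variance over intensity and 18.1 prior degrees of freedom, on log2(value + 1) of genes whose mean reached 10, 2 libraries against 2, two-sided, with Benjamini-Hochberg adjustment over 14510 genes. Fold changes on this scale understate changes of low genes, and p-values measure the spread between these cultures of 1 line each. Replicates differed by more than sampling noise (chi-square per degree of freedom 2.95 in wild-type and 1.94 in Bmal1-/-). Same-numbered libraries did not deviate together (correlation −0.02). Within-library ratios were tested by exact permutation. The study called genes with DESeq2; edgeR 4.0.16 and DESeq2 1.42.0 on whole reads were alternatives here, beside other filters, pseudocounts, scalings, the replicate number as a block and each library left out. Tests were tried on simulated data.

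The members, lists and tests were chosen with earlier results of these data known. Genes named are the 10 members, Arntl and, in each list, up to 3 highest and up to 3 lowest log2 fold changes among genes called, plus those past 2-fold. Tables and plots were made in Python 3.11.15 (pandas 2.3.3, numpy 2.4.6, matplotlib 3.10.9).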

Additional observations from a re-analysis of the deposited data

How the results depend on the processing

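Calls for Mfn1 and Fis1 kept their direction and their side of the threshold under all alternatives run other than the 2-fold threshold, with log2 fold changes of 0.57 to 0.64 and of −0.47 to −0.43 when each library was left out. Tfam (−0.40 to −0.22) lost its call in limma without the trend, at −0.31 (adjusted p = 0.063), and Dnm1l (0.10 to 0.15) lost it with no filter on low values, at 0.13, without the trend, at 0.13, and with centring on exon length and GC content, at 0.07. The members that did not pass changed sign as follows. Ppargc1b was at 0.02 with equal library totals, 9.4e-04 in DESeq2 and 0.01 with centring on exon length and GC content, and between −0.16 and 0.09 with libraries left out. Opa1 was at 0.04 with equal library totals, 0.02 with quantile normalization, 0.0016 in edgeR and 0.01 in DESeq2, and between −0.06 and 0.02 with libraries left out. Nrf1 ranged from −0.16 to 0.01 with libraries left out and Esrra turned to 0.01 with centring on exon length and 0.07 with GC content as well. Centring on exon length, and on GC content as well, brought calls for Nrf1 (−0.30 and −0.30), Opa1 (−0.17 and −0.21) and Mfn2 (−0.17 and −0.16). The number of members called was 2 in limma without the trend (1 higher, 1 lower), where 5060 of 14510 genes were called, beside 7639 with the trend. It was 7 with centring on exon length, 5 of them lower, where 7192 genes were called. With GC content as well 1 was higher and 5 lower, where 7123 of 13239 genes were called. The number of members called also moved with the library left out, and it was 0 with a 2-fold threshold. With no filter it was 3, of which 1 was higher, where 5636 of 23598 genes were called. Over the 8 lists, 28 genes were lower without the trend and 32 in DESeq2, and 19 were higher with equal library totals, 14 with quantile normalization and 15 in edgeR; with libraries left out 7 to 17 were higher, the most without wild-type replicate 1. Among named list genes Ppard lost its call under 12 alternatives, Mief2 under 9, Bnip3l under 7, Nrip1 under 6 and Pink1 under 5. Esrrb lost it under 3, Fkbp8, Kif1b and Mtfr2 under 2 each, and Armcx3 and Tefm under 1 each. Nrip1 was at −0.0033 with centring on exon length and GC content. With the replicate block 7949 genes were called instead of 7639, 4 members as without it, and 53 list genes lower and 11 higher. Samples share only a number, and the block changed the call of no member. The cause of these changes was not tested. Depth limits the statement on Ppargc1a, which had at most 1 read per library, and 2 libraries per group limit all of them.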
